A study of Homo sapiens with 8 samples.

Results

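The genes that set the pace of the G1 phase were examined in Rh41 cells after knockdown of G9a. They are the D-type cyclins CCND1, CCND2 and CCND3, their kinases CDK4 and CDK6, cyclin E (CCNE1), the inhibitors CDKN1A, CDKN1B and CDKN2A, and the retinoblastoma gene RB1. They were chosen by symbol, as 10 genes of the 60234 rows in the deposited table. Each symbol had a single Ensembl identifier, and all 10 were among the 15092 genes whose mean over the libraries reached 1 CPM (reads of a gene scaled to the total assigned to genes in its library). Rh41 is an established alveolar rhabdomyosarcoma line that carries the PAX3-FOXO1 fusion, in both groups. The 4 control libraries (CTR) and the 4 knockdown libraries (siG9a, after G9a, the histone H3 lysine 9 methyltransferase encoded by EHMT2) carry the replicate numbers 1 to 4. The labels do not describe the control treatment or the time after knockdown. The series title writes shG9a where the samples are named siG9a. All libraries come from this cell line alone, and the labels do not say whether replicates were separate cultures, so p-values measure the spread between these libraries.

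D-type cyclins accumulate when growth signals arrive and activate CDK4 and CDK6, which begin to phosphorylate the RB1 protein. RB1 then releases E2F transcription factors, cyclin E with CDK2 completes the phosphorylation, and the cell enters S phase. The Cip/Kip proteins p21 (CDKN1A) and p27 (CDKN1B) inhibit CDK2 complexes, while p16, a product of CDKN2A, blocks CDK4 and CDK6. In muscle precursors, a fall of cyclin D1 and a rise of p21 accompany exit from the cycle, while cyclin D3 is induced. G9a has been described as a repressor of CDKN1A and as acting together with cyclin D1, which frames the comparison of siG9a with control for these genes.

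The libraries held between 1458825 and 1938665 assigned reads, so a single read was worth 0.516 to 0.685 CPM. Mitochondrial genes took a larger share of the reads in siG9a in 4 of 4 pairs, with control at 9.18% against 13.7% in replicate 1, 5.58% against 11.4% in replicate 2, 4.68% against 6.53% in replicate 3 and 4.59% against 5.21% in replicate 4. EHMT2 measured between 57.6 and 88.3 CPM in control and between 19.6 and 58.5 CPM in siG9a. In pairs of equal replicate number, 34.0%, 51.6%, 37.9% and 66.3% of the control level remained. The groups overlapped, and the log2 difference of −1.10 had limma adjusted p values of 0.191 without and 0.000472 with the replicate number as a block. EHMT2 has 7 identifiers in the table, and the highest of these rows was used. Exons of EHMT2-AS1 overlap EHMT2 on the opposite strand. Both replicate 3 libraries stood apart from the other 6 along the first principal component (39.9% of the variance). Their summed CPM of 8 rhabdomyosarcoma markers was 343 in control and 326 in siG9a, where the other 6 libraries lay between 1095 and 2115, and MYOD1 was at 95.3 and 127.9 CPM against 608 to 864. The summed CPM of 30 E2F target genes was highest in the same libraries, at 4470.5 and 4418, against 2618 to 3586. Summed fibroblast markers lay between 119.9 and 417 CPM in control and between 53.1 and 324 CPM in siG9a, and epithelial markers between 10.3 and 80.5 CPM and between 24.6 and 45.1 CPM. For the immune markers these ranges were 1.83 to 4.91 CPM and 2.58 to 10.3 CPM, with MS4A1 at 0 in every library and EPCAM, of the epithelial list, at 0 in 6 of 8. In limma with the replicate block, 5 of 8 tested rhabdomyosarcoma markers (DES, FGFR4, CDH15, CHRNA1 and TFAP2B), 1 of 6 fibroblast markers (COL1A1), 1 of 4 epithelial markers (CDH1) and 0 of 2 immune markers were called, all lower in siG9a, where 6.52% of all genes were. Without replicate 3 the same fit called 5 rhabdomyosarcoma markers and 0 fibroblast markers (COL1A1 had a limma adjusted p of 0.368), and of the epithelial markers CDH1 as lower and KRT19 as higher (log2 2.06, limma adjusted p 0.0134). MYOD1, FGFR4, TFAP2B, EPCAM, MS4A1, CDH1 and KRT19 were named after their values were seen. The summed rhabdomyosarcoma markers ran from 343 to 2115 CPM in control and from 326 to 1602 CPM in siG9a. In these bulk libraries fewer cells of a kind and less RNA per cell cannot be told apart. The part of these differences, and of the mitochondrial share, in the results on G1 genes was not tested.

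In siG9a the transcripts of 2 cyclins were lower than in control, CCND2 and CCND1, and those of CDK6 and CDKN1B were higher, when libraries were compared by replicate number. The labels do not explain these numbers, so the pairing is inferred, and the main test was the fit without the block. limma without the replicate block called 0 of the 10 genes, and 0% of all 15092 genes, at an adjusted p under 0.05. At an unadjusted p under 0.05, 3 of the 10 passed (CCND1, CCND2 and CDKN1B), where 12.5% of all genes did. With the replicate number as a block, called the paired fit here, limma called 4 of the 10, against 11.4% of all genes. CDK6 and CDKN1B were higher (4.86% of all genes were) and CCND1 and CCND2 lower (6.52% of all genes were). Without replicate 3, the paired fit called the same 4 genes, where the background was 7.87% (2.91% higher and 4.96% lower). The fit without the block and without replicate 3 called 3, CDKN1B as higher and CCND1 and CCND2 as lower, where the background was 2.77% (0.787% higher and 1.98% lower).

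The tools differed on these genes. edgeR called 0 of the 10 without the block and 0% of all genes, and with the block it called the same 4 as limma, against 11.3% of all genes (4.73% higher and 6.59% lower). DESeq2 without the block called CCND2 and CDKN1B, against 1.93% of all genes (0.636% higher and 1.3% lower). DESeq2 with the block called 3, CCND2, CDK6 and CDKN1B, against 6.2% of all genes (2.12% higher and 4.08% lower). The siG9a values lay wholly outside the control range for 2 of the 10 genes, as they did for 7.32% of all genes. These were CDKN1B, above it (3.88% of all genes), and CCND2, below it (3.45% of all genes). The direction was the same in 4 of 4 pairs for 5 of the 10, against 30.2% of all genes. CDK6, CDKN1B and CDKN2A were higher in each pair (14.9% of all genes) and CCND1 and CCND2 lower (15.3% of all genes). The median log2 difference of the 10 genes was −0.05, against 0.01 over all genes tested, with 5 higher and 5 lower. The pairs with the largest steps in the mitochondrial share, replicates 1 and 2, were also those with the largest fold differences of CCND1, CDK6 and CDKN1B, and the part of the former in the latter was not tested.

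**Figure D1:**
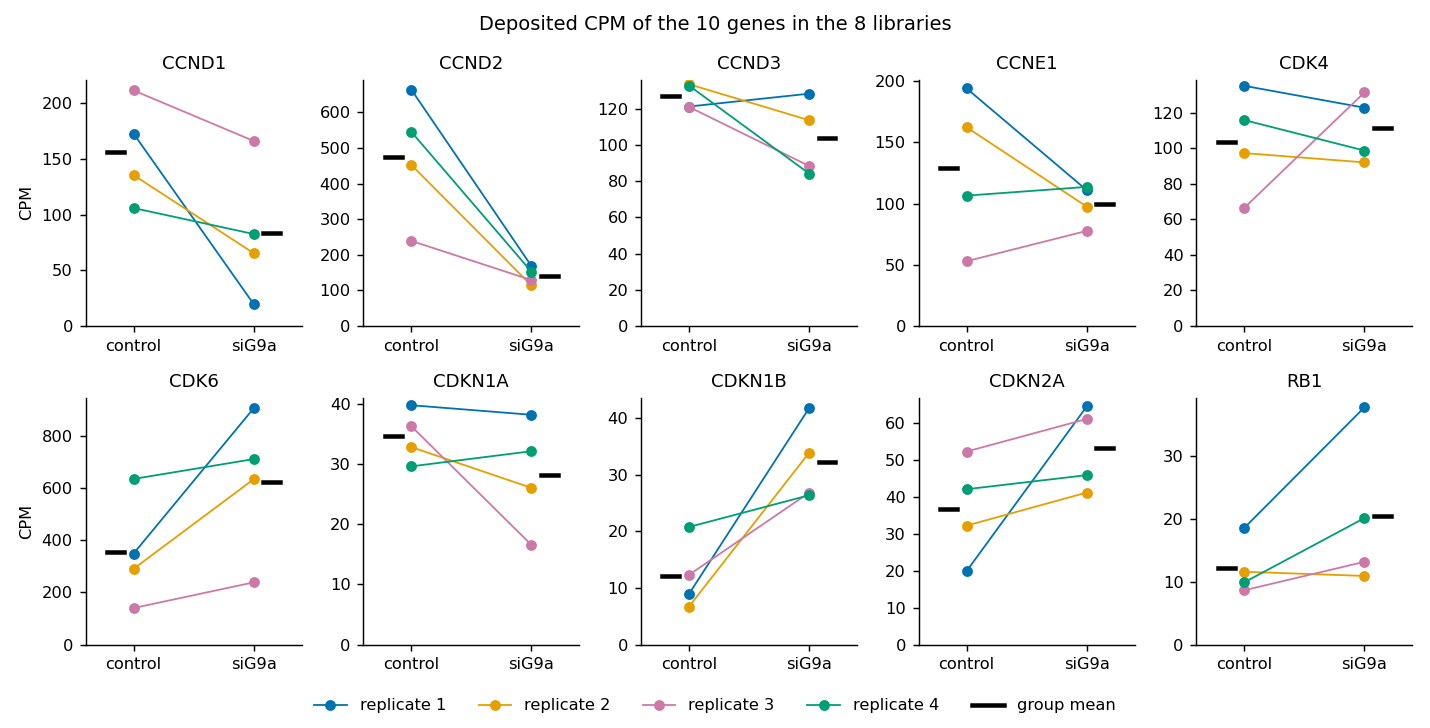
Deposited CPM of each of the 10 genes (vertical axis, from 0) in control and siG9a libraries; each line joins the libraries of equal replicate number and black bars are group means (n = 4). CCND2 was at 168.7 CPM or less in all siG9a libraries and CDKN1B at 26.4 CPM or more in all of them. CCND3, CCNE1, CDK4, CDKN1A and RB1 have pairs in both directions.

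Cyclin D2 showed the largest difference of the 10 genes. CCND2 (ENSG00000118971), a D-type cyclin, measured 664, 453, 239 and 546 CPM in control replicates 1 to 4 and 168.7, 113.8, 129.03 and 152.6 CPM in siG9a replicates 1 to 4. Every siG9a library was below every control library, and control replicate 3 was the lowest of its group. Control averaged 475 ± 179.7 CPM and siG9a 141.01 ± 24.4 CPM (SD, n = 4 each), so 29.7% of the control mean remained. By pair, siG9a held 25.4%, 25.1%, 53.9% and 27.95% of the control value. The difference on log2(CPM + 1) was −1.67 ± 0.29 (SE), and limma gave adjusted p values of 0.0898 unblocked and 3.13e-07 in the paired fit. An exact two-sided permutation test of the 8 values gave p = 0.0286, the smallest that 4 against 4 allows. The call of the paired fit held in each of the 4 fits that left out a replicate number, with log2 changes from −1.93 to −1.56. In GENCODE release 29, exons of CCND2 overlap those of AC008012.1 on the same strand and of CCND2-AS1 on the opposite strand. The use of strand in counting is not given in the sources used here, so reads of these genes may not be separable.

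Cyclin D1 was lower in 4 of 4 pairs, by very unequal amounts. CCND1 (ENSG00000110092), the D-type cyclin most often amplified in cancer, measured 172.7, 135.5, 212 and 105.9 CPM in control and 19.6, 65.4, 166.1 and 82.6 CPM in siG9a. The groups overlapped, because siG9a replicate 3 was higher than control replicates 2 and 4. In replicate 1, 11.3% of the control level remained (38 reads, 95% Wilson interval 14.3 to 26.9 CPM, against 252 reads and 152.7 to 195.4 CPM in control). In replicates 2, 3 and 4, 48.2%, 78.5% and 78.0% remained. Control averaged 156.4 ± 45.8 CPM and siG9a 83.4 ± 61.2 CPM (SD, n = 4 each). The log2 difference was −1.20 ± 0.49 (SE), and limma gave adjusted p values of 0.352 unblocked and 0.00449 in the paired fit. In the paired fit the SE was 0.27. There eBayes draws each gene's variance toward the trend over all genes, so this p does not rest on the unequal 4 pairs alone. Without replicate 1 the log2 difference was −0.58 and the paired limma call was lost (adjusted p = 0.0592), and DESeq2 with the block did not call the gene (adjusted p = 0.268). Without replicate 3 the fit without the block called it, at −1.49 with a limma adjusted p of 0.0478. An exact permutation test gave a two-sided p of 0.114. Exons of LTO1 overlap CCND1 on the opposite strand.

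Cyclin D3 had the smallest log2 difference of the D-type cyclins, but not in every pair. In replicates 3 and 4, 73.0% and 63.4% of its control level remained, less than the 78.5% and 78.0% of CCND1. CCND3 (ENSG00000112576) measured 121.3, 133.7, 121.1 and 132.9 CPM in control and 128.4, 113.8, 88.5 and 84.3 CPM in siG9a. It was lower in 3 of 4 pairs, and only siG9a replicate 1 lay inside the control range. Control averaged 127.3 ± 6.98 CPM and siG9a 103.8 ± 21.0 CPM (SD, n = 4 each). The log2 difference of −0.31 (95% interval −0.75 to 0.12) did not pass in limma without the block (adjusted p = 0.564) or with it (adjusted p = 0.223). Exons of AL513008.1 overlap CCND3 on the opposite strand.

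The summed D-type cyclin level was lower in siG9a, and CCND2 held a smaller share of it. These sums and shares are descriptions without a test. QuantSeq counts a read per transcript end, so CPM of different genes can be set side by side without a length correction. Summed over the 3 genes, the level was 958, 722, 572 and 785 CPM in control and 317, 293, 384 and 319 CPM in siG9a, with no overlap between the groups. CCND2 supplied 60.9 ± 13.1% of these reads in control and 43.4 ± 8.80% in siG9a (SD, n = 4 each). In control replicate 3 its share was 41.8% (95% Wilson interval 38.7 to 45.03%), where the other control libraries ran from 62.7% to 69.6%. CCND3 made up 17.3 ± 3.57% in control and 32.2 ± 8.78% in siG9a, without overlap between the groups. The CCND1 share ran from 13.5% to 37.0% in control and from 6.19% to 43.3% in siG9a, and was highest in the replicate 3 library of each group.

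**Figure D2:**
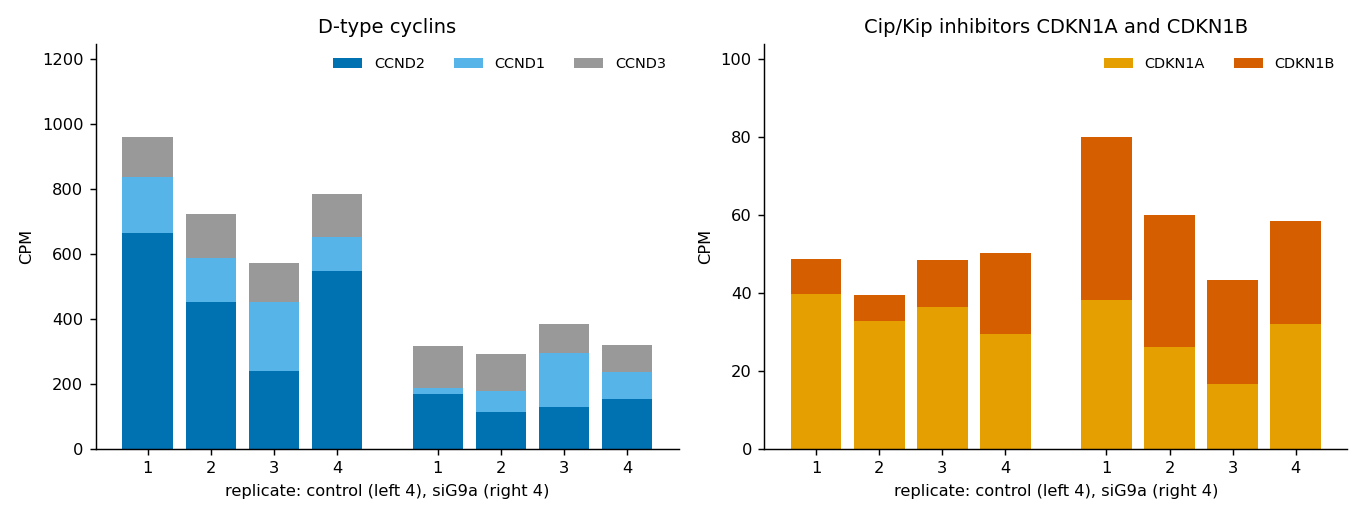
Stacked CPM of the D-type cyclins (left panel) and of CDKN1A and CDKN1B (right panel) in each library, control to the left and siG9a to the right by replicate number. The cyclin D total is 572 CPM or more in control and 384 CPM or less in siG9a, and CDKN1B takes 45.1% or more of the pair in siG9a against 41.2% or less in control.

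Whether members of a family changed by different amounts was tested on the log2 ratio of 2 genes in each library, for 5 ratios chosen after the values were seen. The CCND2 to CCND3 ratio was lower in siG9a by −1.36 on the log2 scale, in 4 of 4 pairs and without overlap (exact permutation test, two-sided p = 0.0286, adjusted over the 5 ratios 0.0714). That exact p is the smallest that 4 against 4 libraries allow, and the test does not use the pairing. With only this ratio and CDKN1B to CDKN1A at that limit, the adjusted value could not fall below 0.0714. The CCND2 to CCND1 ratio differed by −0.46 (exact p = 0.600) and the CCND1 to CCND3 ratio by −0.89 (exact p = 0.343), both within the spread of the libraries.

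Of the kinases that partner the D-type cyclins, the paired fit called CDK6 and not CDK4, while the groups overlapped for their ratio. CDK6 (ENSG00000105810) measured 348, 289.8, 139.6 and 634 CPM in control and 905, 633, 238 and 710.0 CPM in siG9a. It was higher in 4 of 4 pairs, by 2.60-fold, 2.18-fold, 1.71-fold and 1.12-fold, while the groups overlapped widely and the replicate 3 library was the lowest of each. Control averaged 353 ± 207 CPM and siG9a 621 ± 280.0 CPM (SD, n = 4 each). The log2 difference was 0.86 ± 0.46 (SE), and limma gave adjusted p values of 0.481 unblocked and 0.000940 in the paired fit. All 4 paired fits that left out a replicate number kept the call, with log2 changes from 0.68 to 1.09. The smallest step, in replicate 4, started from the highest control level. An exact permutation test of the unpaired values gave a two-sided p of 0.229.

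CDK4 (ENSG00000135446), the other cyclin D kinase, measured 135.04, 97.2, 66.4 and 115.8 CPM in control and 122.8, 92.0, 131.3 and 98.6 CPM in siG9a. It was lower in 3 pairs and higher in replicate 3, where siG9a held 197.7% of the control level. The log2 difference of 0.13 (95% interval −0.40 to 0.67) had limma adjusted p values of 0.882 unblocked and 0.709 in the paired fit, and it turned to −0.15 without replicate 3. The CDK6 to CDK4 ratio differed by 0.73 on the log2 scale and was higher in 3 of 4 pairs (exact permutation test, two-sided p = 0.314). CDK6 supplied most of the summed CDK4 and CDK6 reads in all 8 libraries, from 67.8% to 84.6% in control and from 64.5% to 88.1% in siG9a. Exons of TSPAN31 overlap CDK4, and those of AC002454.1 overlap CDK6, on the opposite strand.

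Cyclin E1, which activates CDK2 late in G1, did not pass in either limma fit. CCNE1 (ENSG00000105173) measured 194.0, 162.2, 52.9 and 106.4 CPM in control and 110.9, 97.5, 77.7 and 113.6 CPM in siG9a. Its control values spanned a wider range than its siG9a values, with the lowest of each group in replicate 3. The ratio of siG9a to control was 57.2% and 60.1% in replicates 1 and 2 and 146.8% and 106.7% in replicates 3 and 4. The log2 difference was −0.22 (95% interval −0.98 to 0.53), and limma gave adjusted p values of 0.855 unblocked and 0.502 in the paired fit, and it was 0.025 without control replicate 1.

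The promoters of the Cip/Kip inhibitors p27 and p21 are shown because CDKN1B was called in the paired fit and CDKN1A was not. The RefSeq promoters run from 250 bases before to 50 bases after the gene's start, on the plus strand of GRCh38.p14, with matches to 3 motifs in capitals on either strand: the GC box GGGCGG, the CCAAT box CCAAT and the E-box CACGTG. Promoter entries were found for 8 of the 10 genes.
CDKN1B, chr12:12717118-12717417: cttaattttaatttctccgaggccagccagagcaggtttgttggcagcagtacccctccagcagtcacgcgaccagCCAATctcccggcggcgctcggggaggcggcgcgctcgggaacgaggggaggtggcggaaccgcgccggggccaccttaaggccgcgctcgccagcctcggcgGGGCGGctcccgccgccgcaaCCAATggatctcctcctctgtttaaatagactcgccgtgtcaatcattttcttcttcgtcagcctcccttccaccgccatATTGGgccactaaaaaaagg
CDKN1A, chr6:36678464-36678763: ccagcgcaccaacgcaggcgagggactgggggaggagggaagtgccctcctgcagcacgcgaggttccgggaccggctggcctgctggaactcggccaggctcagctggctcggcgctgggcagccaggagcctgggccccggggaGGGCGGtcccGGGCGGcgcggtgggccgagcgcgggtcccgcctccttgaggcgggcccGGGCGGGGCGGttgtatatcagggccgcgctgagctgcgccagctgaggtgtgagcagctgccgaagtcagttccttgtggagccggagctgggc
The CDKN1B window holds 3 CCAAT boxes and 1 GC box, and the CDKN1A window holds 4 GC boxes, of which a pair overlaps, and no CCAAT box. Neither holds an E-box or the E2F sites TTTCCCGC or TTTGGCGC. Of 34943 promoters of the same length, 34.6% held a CCAAT box, 44.9% a GC box, 7.23% an E-box, 1.62% TTTCCCGC and 0.650% TTTGGCGC. Each window has 29 CpG dinucleotides, where the median promoter has 14.

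CDKN1B (ENSG00000111276), which encodes p27, rose in the paired fit. It measured 8.91, 6.68, 12.3 and 20.8 CPM in control and 41.8, 33.9, 26.8 and 26.4 CPM in siG9a. Every siG9a library was above every control library, and the gap between the highest control and the lowest siG9a value was small. The control values rested on 13, 11, 20 and 40 reads and the siG9a values on 81, 56, 47 and 46 reads. By pair the level was 4.69-fold, 5.07-fold, 2.18-fold and 1.27-fold that of control. Control averaged 12.2 ± 6.18 CPM and siG9a 32.2 ± 7.24 CPM (SD, n = 4 each). The log2 difference was 1.42 ± 0.35 (SE), and limma gave adjusted p values of 0.131 unblocked and 0.00178 in the paired fit. Replicate 4 was the highest control and the lowest siG9a library, so equal numbers did not share high or low levels of this gene. The SE of 0.29 in the paired fit includes the eBayes trend over all genes, so its p does not rest on these 4 pairs alone. The paired call held in each fit that left out a replicate number, with log2 changes from 1.17 to 1.79. An exact permutation test gave a two-sided p of 0.0286.

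CDKN1A (ENSG00000124762), which encodes p21, did not pass in either limma fit, and its mean was lower in siG9a. It measured 39.8, 32.8, 36.3 and 29.6 CPM in control and 38.2, 26.03, 16.6 and 32.1 CPM in siG9a. The value was lower in 3 of 4 pairs, and siG9a replicates 1 and 4 lay inside the control range. Control averaged 34.6 ± 4.38 CPM and siG9a 28.2 ± 9.22 CPM (SD, n = 4 each). The log2 difference was −0.34, and limma gave adjusted p values of 0.681 unblocked and 0.375 in the paired fit. Its 95% interval ran from −0.95 to 0.27 without the block and from −0.80 to 0.13 with it. Without replicate 3 the difference was −0.09. Exons of the non-coding gene DINOL overlap CDKN1A on the opposite strand.

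Between p21 and p27 transcripts, CDKN1B held a larger share in each siG9a library than in any control library. CDKN1B supplied 18.3%, 16.9%, 25.3% and 41.2% of the summed CDKN1A and CDKN1B reads in control, and 52.3%, 56.6%, 61.8% and 45.1% in siG9a. The Wilson intervals of control replicate 4 (32.0 to 51.2%) and siG9a replicate 4 (35.8 to 54.8%) overlapped, and the other 3 pairs did not overlap in this way. The CDKN1B to CDKN1A ratio was higher by 1.76 on the log2 scale, in 4 of 4 pairs and without overlap (exact permutation test, two-sided p = 0.0286, adjusted over the 5 ratios 0.0714). As for the CCND2 to CCND3 ratio, the exact p was the lowest this test could give, while the adjusted value depends on how many of the 5 ratios reach it.

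CDKN2A (ENSG00000147889) encodes p16 and, from another first exon, p14ARF, which stabilises p53. Both transcripts share their last exons, so 3′ reads do not tell them apart. CDKN2A measured 19.9, 32.2, 52.3 and 42.1 CPM in control and 64.5, 41.2, 61.1 and 45.9 CPM in siG9a. It was higher in 4 of 4 pairs, as 14.9% of all genes were, but by 3.24-fold in replicate 1 and by 1.28-fold, 1.17-fold and 1.09-fold in replicates 2, 3 and 4. The log2 difference of 0.58 (95% interval −0.07 to 1.24) had limma adjusted p values of 0.462 unblocked and 0.0934 in the paired fit. Without replicate 1 it was 0.23. Exons of CDKN2B-AS1 overlap CDKN2A on the opposite strand.

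RB1 (ENSG00000139687), the pocket protein that holds E2F factors, was low in all libraries. It measured 18.5, 11.6, 8.61 and 9.87 CPM in control and 37.7, 10.9, 13.1 and 20.1 CPM in siG9a, which rested on 14 to 27 reads and 18 to 73 reads. The value was higher in 3 of 4 pairs, and siG9a replicate 1 was the highest library. The log2 difference of 0.60 (95% interval −0.26 to 1.47) had limma adjusted p values of 0.576 unblocked and 0.172 in the paired fit.

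**Figure D3:**
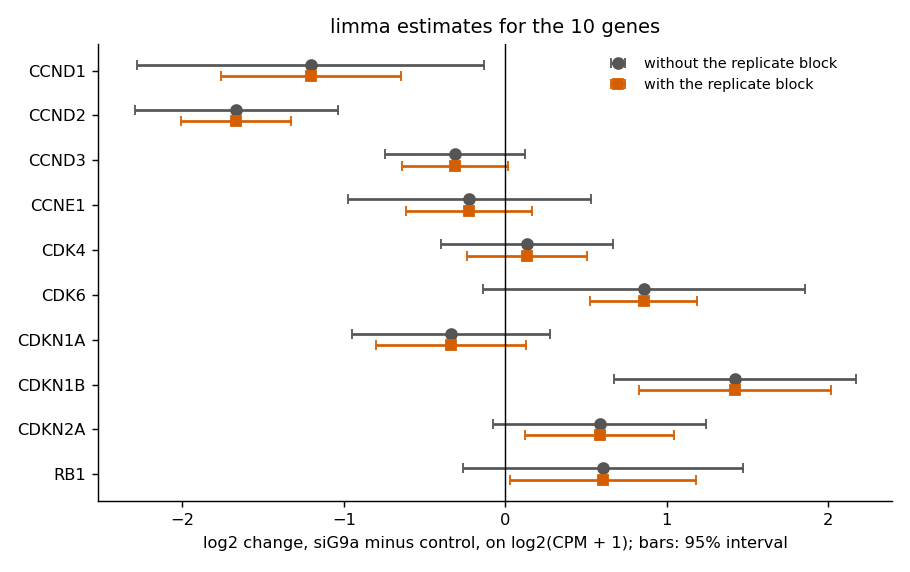
log2 difference of siG9a and control for each gene on log2(CPM + 1), with 95% intervals from limma without the replicate block (circles) and with it (squares). The block leaves the estimates in place and narrows the intervals; for CCND1, CCND2, CDK6 and CDKN1B the adjusted p was under 0.05 with the block.

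In control, the order of mean levels was CCND2, CDK6, CCND1, CCNE1, CCND3, CDK4, CDKN2A, CDKN1A, CDKN1B and RB1. Control ranges of neighbours in that order overlapped except between CDK4 (103.6 CPM) and CDKN2A (36.6 CPM) and between CDKN1A (34.6 CPM) and CDKN1B (12.2 CPM). The cyclins and kinases had higher control means than the inhibitors and RB1. In siG9a CDK6 (621 CPM) came first, its range separate from that of CCND2 (141.01 CPM), and all further neighbours overlapped.

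The other genes of the G1 machinery were described from a list of 30, of which 29 were tested and CDK3 was at 0 in every library. limma without the block called 0 of the 29, and 5 had an unadjusted p under 0.05, where 12.5% of all genes did. The paired fit called 6, all higher, where it called 4.86% of all genes as higher. The median log2 difference of the 29 was 0.24, against 0.01 over all genes tested, with 20 higher and 9 lower. Without regard to calls, siG9a lay wholly above the control range for 3 of the 29 and wholly below it for 1. These shares were 3.88% and 3.45% over all genes. CDK2, the cyclin E kinase, measured between 90.9 and 137.8 CPM in control and between 139.2 and 177.4 CPM in siG9a, without overlap (log2 0.52, limma adjusted p 0.327 without the block and 0.0283 with it). The CDK2 call was lost without replicate 3 (limma adjusted p 0.0652 in the paired fit) and in DESeq2 with the block (adjusted p 0.0839). E2F2, an activating E2F factor, measured between 21.3 and 43.04 CPM and between 43.6 and 61.9 CPM, also without overlap (log2 0.73, limma adjusted p 0.293 and 0.0273, and 0.0995 by DESeq2 with the block). E2F4, a factor that works mainly in repressor complexes, had a log2 difference of 0.90 (limma adjusted p 0.368 and 0.0367), and its call was lost without replicate 3 (0.0548) and in DESeq2 with the block (adjusted p 0.151). The other 3 of the 6 were chosen after their values were seen, to complete the count. CDC25A, the phosphatase that activates CDK2, differed by 0.89, TFDP1, the partner of E2F factors, by 0.60, and CDKN2D, which encodes the CDK4 and CDK6 inhibitor p19, by 1.67. CDKN2D rested on 1 to 4 reads per control library and 10 to 16 reads per siG9a library. Leaving out replicate 1, 2, 3 or 4, the paired fit called 1, 2, 3 and 5 of the 29. Over all genes those fits called 972, 653, 1180 and 1392. Without replicate 3, TFDP1 also lost its call (limma adjusted p 0.145), and E2F2, CDC25A and CDKN2D kept theirs. With the block, edgeR called 6 and DESeq2 called 1, where they called 11.3% and 6.2% of all genes.

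Of the genes that E2F factors activate at the start of S phase, the fits with the block called a few, at counts near the shares over all genes. The paired limma fit called them in both directions, and DESeq2 with the block only as lower. Of 30 listed targets, all tested, 20 were higher and 10 lower, where 51.1% of all genes were higher and 48.9% lower, and the median log2 difference was 0.17. limma without the block called 0 of them, and 2 had an unadjusted p under 0.05, where 12.5% of all genes did. The paired fit called 5, of which SLBP, RRM1 and RFC4 were higher and TK1 and MCM4 lower (RRM1, RFC4 and MCM4 were chosen after their values were seen). Over all genes the paired fit called 11.4%, 4.86% as higher and 6.52% as lower. TK1, the thymidine kinase of S phase, measured 92.5, 100.3, 112.5 and 122.5 CPM in control and 70.7, 56.9, 61.7 and 49.3 CPM in siG9a, without overlap (log2 −0.84, limma adjusted p 0.131 without the block and 0.00220 with it). SLBP, which binds the histone mRNA stem loop, had a log2 difference of 0.72 (limma adjusted p 0.300 and 0.0155, and 0.0581 by DESeq2 with the block). CLSPN, a replication checkpoint adaptor, had 0.48 and did not pass in the paired fit (limma adjusted p 0.0518). Leaving out replicate 1, 2, 3 or 4, the paired fit called 1, 2, 3 and 3 of the 30, and 972, 653, 1180 and 1392 of all genes. Without replicate 3, MCM4, RRM1 and RFC4 lost their calls (limma adjusted p 0.0837, 0.0718 and 0.204), TK1 and SLBP kept theirs, and CLSPN was called as higher (0.0391). With the block, DESeq2 called 2 of the 30, TK1 and MCM4, as lower (DESeq2 adjusted p 0.00322 and 0.0318), and none as higher. It called 4.08% of all genes as lower and 2.12% as higher. RRM1 and RFC4 did not pass there (DESeq2 adjusted p 0.0710 and 0.106).

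Among 15 p53 target genes listed beside CDKN1A, none was called as higher in the paired limma fit, where 4.86% of all genes were. In a list of this size that count is too near the share over all genes to be read as a result. That fit called 3 as lower, TP53INP1, BAX and, chosen after its values were seen, TP53I3, where it called 6.52% of all genes as lower. limma without the block called 0, and 1 had an unadjusted p under 0.05, where 12.5% of all genes did. The median log2 difference of the 15 was −0.01. TP53INP1, a regulator of autophagy and cell death, fell from 27.5 ± 10.7 to 10.4 ± 5.33 CPM (SD, n = 4 each) in the paired fit (limma adjusted p 0.00169, and 0.249 unblocked). BAX, a pore former of the mitochondrial death pathway, had a log2 difference of −0.48 (limma adjusted p 0.0392 in the paired fit and 0.533 unblocked). Its call was lost without replicate 3 (limma adjusted p 0.0784) and, with the block, in edgeR (adjusted p 0.0503) and DESeq2 (adjusted p 0.0956). PHLDA3, an AKT antagonist, had −0.49 and did not pass in either limma fit. Leaving out replicate 1, 2, 3 or 4, the paired fit called 1, 1, 2 and 3 of the 15, and 972, 653, 1180 and 1392 of all genes.

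**Figure D4:**
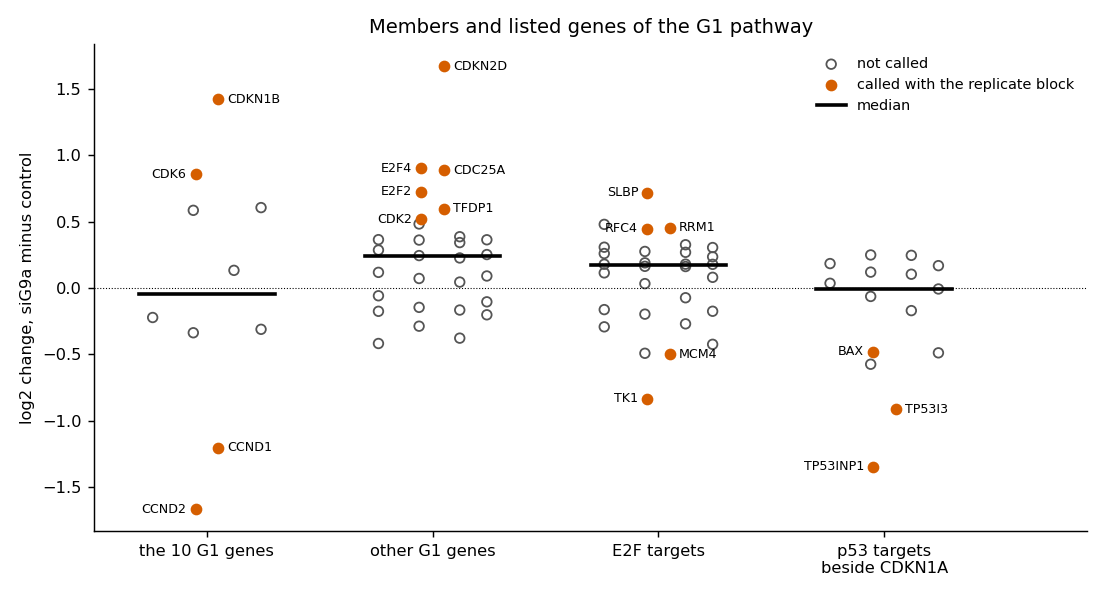
log2 difference of siG9a and control for the 10 genes, 29 other G1 genes, 30 E2F targets and 15 further p53 targets (each point is a gene, black bars are medians). Filled points passed an adjusted p under 0.05 in limma with the replicate block; the 10 genes span −1.67 to 1.42, a wider range than the E2F targets, −0.84 to 0.72.

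The 3 genes with the widest range over the 8 libraries, among those averaging 10 CPM or more, were CCND1, CDK6 and CCND2. For each, the genes most alike were taken as those with the highest Pearson correlation of log2(CPM + 1) over the 8 libraries, among 8897 other genes. CCND2 was most like TNNI1 (0.99), TSPAN18 (0.98) and CTNNB1 (0.98), CDK6 most like KAT7 (0.98), CIRBP (0.97) and CCDC171 (0.97), and CCND1 most like TMEM187 (0.97), RP11-849F2.9 (0.96) and AIF1L (0.95). These are descriptions picked from many genes over libraries that share the group difference and the replicate 3 shift. TNNI1, slow skeletal troponin I, was at 252, 161.6, 36.3 and 136.6 CPM in control and at 28.4, 16.3, 14.3 and 20.1 CPM in siG9a, so it had the same low control replicate 3 and the same separation of the groups as CCND2.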

How the data were processed

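QuantSeq 3′ mRNA libraries of total RNA were sequenced as single-end reads of 75 bases, per the labels' protocols. The authors deposited CPM per gene and library, to 2 decimals. The submitters' processing notes name FastQC 0.11.8, Trim Galore, STAR 2.5.0a, HTSeq 0.8.0 and edgeR 3.28, and the builds GRCh38 and hg19, without roles; use of strand is not given in the sources used here. Because CPM is relative to each library's total, a strong shift in abundant genes alters the values of the rest.

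All non-zero values (100%) were whole multiples of a single read within 0.0051 CPM, so reads were recovered for intervals, for edgeR and for DESeq2. Intervals are 95% Wilson intervals and cover counting error only. Libraries of the same group differed by more than sampling of reads gives, with chi-square over its degrees of freedom between 6.67 and 33.03. The test was limma 3.58.1 (R 4.3.3; lmFit, eBayes with trend, two-sided) on log2(CPM + 1) of 15092 genes averaging 1 CPM or more, with Benjamini-Hochberg adjustment over all of them. The pseudocount of 1 understates changes of low genes. Differences are siG9a minus control.

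The replicate numbers in the sample titles were taken to pair libraries, because deviations of same-numbered libraries from their group means correlated across genes by 0.50, 0.10, 0.67 and 0.13 (0.104 at the lowest, above the minimum of 0.1). Control replicate 2 correlated more with siG9a replicate 4 (0.144) than with its own number, so the pairing rests mainly on numbers 1 and 3. Alternatives were other pseudocounts, filters, scalings and tools (edgeR 4.0.16, DESeq2 1.42.0), the replicate block, and leaving out libraries. Scripts were tested on simulated data. There both groups shared a mean for each replicate number, so pairing was built in and the simulation cannot test the pairing. The genes and lists were chosen with earlier results of these data known. Beside the 10 genes and EHMT2, the naming rule took at most 3 genes of each list, those with the smallest unadjusted p that averaged 10 CPM or more, and, for the 3 of the 10 genes with the widest range, the 3 most correlated genes. Genes named outside it are marked as such. Promoters come from RefSeq (GRCh38.p14) and overlaps from GENCODE release 29.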

Additional observations from a re-analysis of the deposited data

Results flagged for a closer look

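A library was marked where its gap to the nearest library of its group, relative to the group's range, passed Dixon's 95% critical value for 4 libraries. Of 52 groups of values, 2 were marked, and chance marks about 1 in 20. None of the 20 groups of the 10 G1 genes was among them. Both marks fell on control replicate 3. TP53INP1 was at 11.7 CPM in that library, and the remaining controls ran from 31.5 to 35.3 CPM. The muscle filament gene DES was at 47.4 CPM, with the remaining controls from 226.4 to 248.1 CPM.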

How the results depend on the processing

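Without the replicate block, pseudocounts of 0.1 and 5, a filter at 5 CPM, scaling by median ratios, eBayes without trend, edgeR and summed identifiers called 0 genes, and no gene of the 10 changed direction under them. Without the filter 18 genes were called, 1 of them among the 10 (CCND2, −1.67). The replicate block called 1717 genes, 4 of the 10 (CCND1 −1.20, CCND2 −1.67, CDK6 0.86, CDKN1B 1.42), 6 other G1 genes, 5 E2F targets and 3 p53 targets, and changed no other call among the 10. edgeR with the block called 1709, 4 (−1.10, −1.69, 0.86 and 1.41), 6, 4 and 3. DESeq2 without the block called 292, 2 (CCND2 −1.77, CDKN1B 1.402), 1, 1 and 0, and with it 936, 3 (CCND2 −1.69, CDK6 0.85, CDKN1B 1.45), 1, 2 and 2.

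Leaving replicate 1, 2, 3 or 4 out of the paired fit (replicate block) gave −0.58, −1.26, −1.49 and −1.49 for CCND1, −1.57, −1.56, −1.93 and −1.61 for CCND2, 0.68, 0.77, 0.89 and 1.09 for CDK6, and 1.19, 1.17, 1.54 and 1.79 for CDKN1B, with 972, 653, 1180 and 1392 genes called. CCND1 alone lost its call, without replicate 1. Leaving out a library, or a replicate number from both groups, gave from 0 to 415 calls without the block and from 653 to 1392 with it. The same fits called 0 to 3 of the 10 genes without the block (300 genes and 1 of the 10 without control replicate 3) and 3 to 4 with it. Over all these fits the counts ran from 0 to 5 for other G1 genes, 0 to 3 for E2F targets and 0 to 3 for p53 targets. The log2 differences ran from −1.65 to −0.58 for CCND1, −1.97 to −1.48 for CCND2, −0.44 to −0.20 for CCND3, −0.15 to 0.27 for CDK4 and 0.48 to 1.27 for CDK6. They ran from −0.59 to 0.02 for CCNE1, −0.50 to −0.09 for CDKN1A, 1.17 to 1.79 for CDKN1B, 0.23 to 0.78 for CDKN2A and 0.27 to 0.84 for RB1. CDK4 turned negative without replicate 3 and CCNE1 positive (0.025) without control replicate 1; the cause was not tested. The fits with replicates 1, 2 or 4 left out under the block, and the tests of ratios, were chosen after seeing the data. Depth limits CDKN1B, RB1 and CDKN2D, which rest on few reads per library.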
